A study of Homo sapiens with 3 samples.

Results

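ATF4 targets and the cytosolic aminoacyl-tRNA synthetases were followed as 1 set of 42 genes, taken by symbol from the 20344 genes listed for each library. The set held 5 transcription factors, 6 stress effectors, 10 enzymes of amino acid metabolism, the tRNA exporter gene XPOT and 20 synthetase genes. All 42 symbols were found. RNA was sequenced from human melanoma cells of the A375 line, which carries a mutant BRAF kinase. The library titled "A375, Prop" is called the A375 library here, and the one titled "A375-VR, Prop" the A375-VR library (A375 and A375-VR for short); VR is not spelled out in the labels, and the series title concerns resistance to the BRAF inhibitor vemurafenib. For both, the extraction protocol speaks of A375-VR cells given DMSO or propranolol, a beta-adrenergic receptor blocker, at 20 µM for 24 h. For the A375 library both the title and the cell line field say A375 instead. Both titles say Prop, read here as propranolol, so by the titles both libraries had the drug and it is not a contrast between them. Cell line, culture and preparation cannot be told apart as sources of a difference. The series has another sample, "A375-VR, DMSO", which was not analysed here. The cell line field of that sample also says A375, so the field alone does not tell A375 from A375-VR. No label says how the resistant cells were made or whether they are 1 clone. Neither library used here is titled as untreated.

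There was 1 library per group, so no test of a condition was possible, and each interval below covers counting error only. The 2 libraries had totals of 17811339 and 16438482 reads or fragments. Melanocyte lineage markers gave a mixed picture of the labelled cell type: SOX10 and 5 others of 11 had an FPKM (reads per kilobase of gene, scaled to the size of the library) of at least 1, while TYR was at 0 in both libraries and MLANA and TYRP1 were each at 0 in 1 of them. The summed FPKM of these 11 markers was 105 in A375 and 254 in A375-VR. Of the 6 that reached 1, 5 were higher in A375-VR, among them SOX10 at 65.3 and 149.6. MITF was lower, at 6.47 and 3.47. The part of these markers in the results was not tested. Of 6 keratinocyte markers, KRT10 had 44.9 and 56.0 FPKM, KRT14 had 2.73 and 3.47 and KRT5 was under 1, while TP63, DSG3 and KRT1 were at 0 in both libraries, with a summed FPKM of 47.8 and 59.5. The 6 leukocyte markers summed to 0.540 and 1.24 FPKM and none reached 1; PTPRC and CD3E were at 0 in both, and CD14 had 0.0595 and 0.710 from 1 and 11 reads. Fibroblast markers summed to 4.80 and 6.90 FPKM, with LUM and PDGFRB of 6 reaching 1. Endothelial markers summed to 0.591 and 2.10, with KDR, at 0.394 and 1.84, the one of 5 that reached 1. The part of these cell types in the results was not tested.

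ATF4 is a basic leucine zipper factor whose mRNA is translated better when the initiation factor eIF2 is phosphorylated, as happens on amino acid shortage, endoplasmic reticulum stress, haem shortage or double-stranded RNA. It pairs with C/EBP family members and binds composite C/EBP-ATF response elements. Its targets refill the amino acid pool: enzymes that make serine, asparagine, proline and cysteine, transporters, and many of the cytosolic synthetases that load amino acids onto tRNA. Other targets, such as DDIT3 (CHOP), TRIB3, CHAC1 and PPP1R15A, shape the later course of the response or bring it to an end. Because ATF4 is controlled largely at translation, its mRNA level is not a measure of its protein.

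The core of the composite element was searched in the RefSeq promoter windows, which run from 250 bases before to 50 bases after each gene start, because it is the element through which ATF4 is known to act. The motif was TGATGNAA on either strand (TTNCATCA when read on the other strand). Of the 34 members with a promoter window, 10 held a match, or 29.4%. The share was 3.64% of the 15419 genes of the deposited files that had a window, and 4.46% of all 27305 genes in the RefSeq table. Among the synthetases the matches fell on 7 of 16 genes with a window. All 7 were among the 10 windows of the synthetases usually listed as ATF4 targets (AARS, CARS, EPRS, GARS, IARS, LARS, MARS, NARS, SARS, TARS, WARS and YARS, a list made from general knowledge), and 0 of the 6 windows of the other synthetases held one. Both the set and this list were drawn up around known ATF4 targets, so a higher share in them is no independent finding. Of the 14 mitochondrial synthetase genes with a window, 1 held a match. Some lists outside the set had higher shares than the members, with 4 of 7 ATF4-linked amino acid transporters (57.1%) and 1 of 2 mitochondrial one-carbon enzymes. Others had lower shares, with 2 of 13 further ATF4 and CHOP targets (15.4%) and 1 of 13 ATF6 and XBP1 targets (7.69%).

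The 10 stretches are shown 5′ to 3′ on the strand of the gene, from RefSeq on GRCh38.p14, with the 8 matching bases in capitals and up to 20 bases on each side. A match is a stretch of letters and not a measured binding site.
CHAC1, chr15:40953242-40953289, plus strand: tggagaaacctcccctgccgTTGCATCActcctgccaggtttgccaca
AARS, chr16:70289666-70289713, minus strand: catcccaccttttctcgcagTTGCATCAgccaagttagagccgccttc
ASNS, chr7:97872449-97872496, minus strand: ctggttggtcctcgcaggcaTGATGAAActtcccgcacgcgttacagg
CEBPG, chr19:33374051-33374098, plus strand: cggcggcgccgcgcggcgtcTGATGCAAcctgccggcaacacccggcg
GARS, chr7:30594825-30594872, plus strand: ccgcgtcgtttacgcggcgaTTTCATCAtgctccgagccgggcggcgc
IARS, chr9:92293683-92293730, minus strand: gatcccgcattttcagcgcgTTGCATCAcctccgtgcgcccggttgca
MARS, chr12:57488044-57488091, plus strand: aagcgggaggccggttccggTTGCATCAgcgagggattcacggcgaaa
CARS, chr11:3057398-3057445, minus strand: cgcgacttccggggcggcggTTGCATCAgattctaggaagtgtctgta
TARS, chr5:33440947-33440994, plus strand: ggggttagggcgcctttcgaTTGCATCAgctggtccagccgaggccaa
NARS, chr18:57621807-57621842, minus strand: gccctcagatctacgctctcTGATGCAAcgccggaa

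The matches of the synthetases lay close to the gene start except in AARS. Counted from the gene start, they began at -33 in GARS, -13 in IARS, -4 in MARS, -2 in CARS, 2 in TARS and 14 in NARS. The match began at -187 in AARS, at -209 in CHAC1 and at -68 in ASNS. ASNS held the form TGATGAAA and GARS the form TTTCATCA, and the other 8 genes held TGATGCAA or its reverse complement TTGCATCA.

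**Figure D1:**
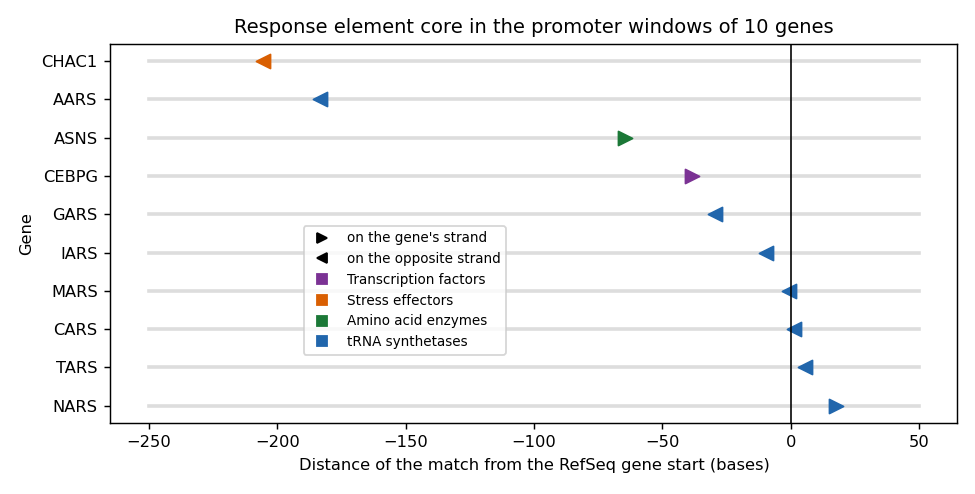
Position of the response element core in the promoter windows of the 10 genes that hold it, as bases from the RefSeq gene start (x axis), 1 gene per row; grey bars are the windows from 250 bases before to 50 after, and arrowheads give the strand of the match. The synthetase matches lie between -33 and 14, except that of AARS at -187.

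As a set, the members were abundant and mostly somewhat lower in the A375-VR library, by far less than 2-fold. Genes that reached an FPKM of 1 in either library were kept, which left 40 of the 42 members and 10761 of all genes. The median FPKM of the kept members was 37.3 in A375 and 36.5 in A375-VR, against 7.22 and 8.09 for all kept genes. Differences are of log2(FPKM + 1), A375-VR minus A375, a scale that understates changes of low genes, while folds are plain ratios of FPKM. Fewer cells of a kind and less RNA per cell cannot be told apart in such values. The members had a median difference of -0.17, beside 0.10 for all kept genes. Of the kept members 27 were below 0 and 13 above 0, or 67.5% below, where 39.7% of all kept genes were below 0.

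No kept member was 2-fold apart. The background was 3.14% of kept genes at least 2-fold higher and 0.613% at least 2-fold lower, a split of 338 against 66 (83.7% higher) that became 272 against 101 (72.9% higher) after scaling by the trimmed mean of log ratios over all genes (centring on the median of those ratios and scaling to a common sum were the other scalings tried). At 1.5-fold, 2 of 40 members were lower, FARSB and PSAT1, against a background of 4.21%, and none was higher, against 11.6%. The 1.5-fold split of all genes was 73.3% higher as deposited and 54.4% higher with the trimmed mean. The count of 2 lower is near the background share and is no result about the set.

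Counting intervals separated more members from a fold of 1. The 95% interval lay below 1 for 24 of 40 kept members, against 26.4% of all kept genes with recovered reads, and above 1 for 9, against 43.6%. It spanned 1 for the other 7. Read against the trimmed mean, a fold of 1.08, in place of 1, the interval lay below for 28 members against 35.0% of all genes, and above for 6 against 33.6%. The members are more abundant than most genes and so have narrower intervals. In all genes 2837 intervals lay below 1 and 4690 above.

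**Figure D2:**
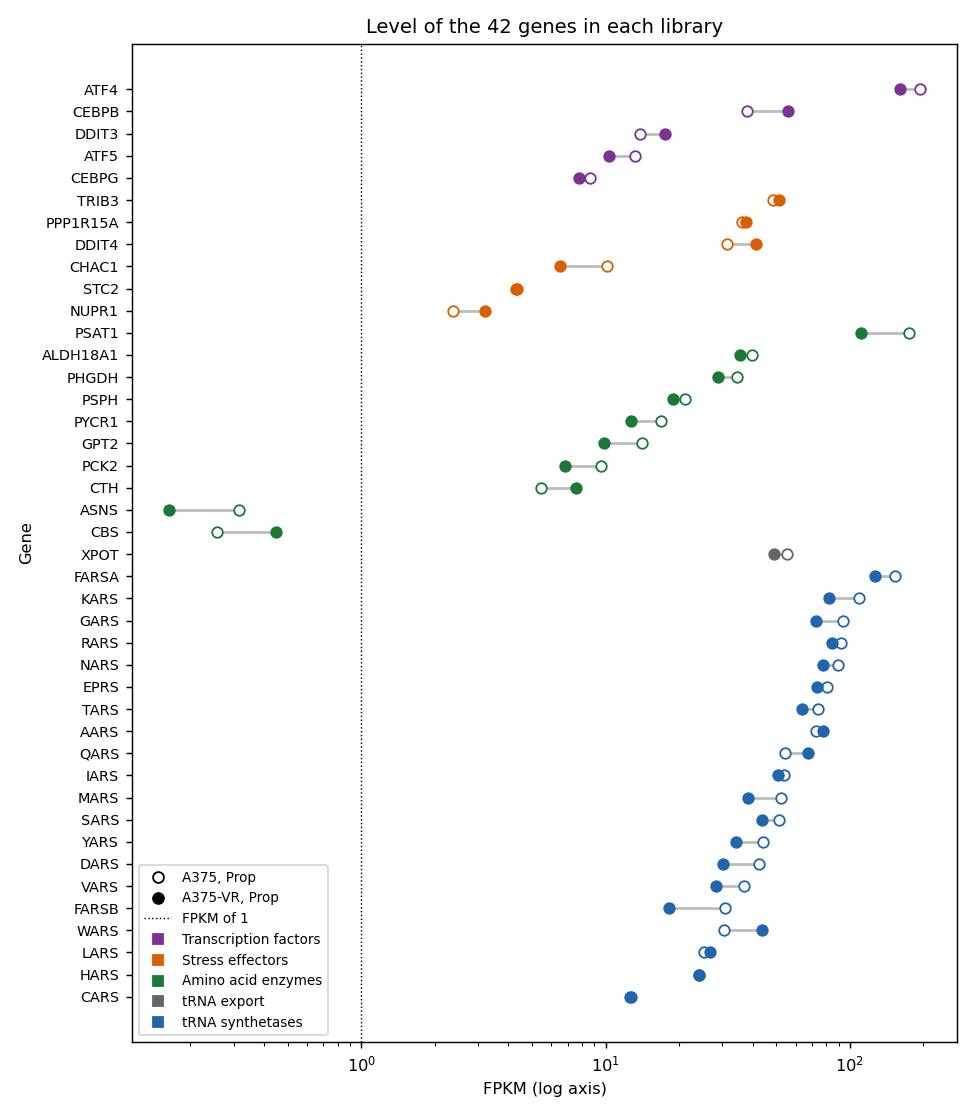
FPKM of each of the 42 genes (x axis, log scale) in the A375 library (open circles) and the A375-VR library (filled circles), 1 library each, grouped by role and ordered by level in the A375 library. ATF4 has the highest level in both libraries, ASNS and CBS lie under an FPKM of 1 in both libraries, and most filled circles lie to the left of the open ones.

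Among the transcription factors, ATF4 and ATF5 were lower in the A375-VR library and CEBPB and DDIT3 higher. ATF4 itself (Entrez 468, chromosome 22 at 39915700 to 39918688, plus strand of GRCh37) had 193.5 FPKM in A375 and 159.9 in A375-VR. It was the most abundant of the 42 genes in both, ranked 186 and 215 among kept genes, and its fold was 0.827 (0.8005 to 0.854). ATF5, a relative of ATF4 that is also under translational control and is tied to the mitochondrial stress response, had 13.2 and 10.4 FPKM, giving a ratio of 0.782 (0.696 to 0.878).

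CEBPB, a C/EBP factor that ATF4 can pair with, had the highest difference of the 40 kept members. It had 37.7 FPKM in A375 and 55.7 in A375-VR, with a ratio of 1.47 (1.37 to 1.58). Its locus is 48807367 to 48809205 of chromosome 20. DDIT3 encodes CHOP, the C/EBP relative that acts below ATF4, and had 13.8 and 17.5 FPKM, giving a ratio of 1.27 (1.09 to 1.47). CEBPG, another pairing partner and 1 of the 10 genes with the response element core, had 8.64 and 7.81 FPKM, and its fold of 0.903 (0.806 to 1.01) spanned 1. These directions held for all 5 factors with each of the 3 other scalings tried. The exons of DDIT3 overlap those of MARS on the opposite strand over 355 bases, and whether counting used strand is not given in the sources used here, so both values are uncertain to that extent. ATF5 shares 565 exon bases with NUP62 on the opposite strand. GENCODE also lists 4 pseudogenes named after ATF4 and 4 after PSAT1, so their counts are uncertain where reads were shared.

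The stress effectors went both ways and had a median difference of 0.07 over 6 genes (-0.04 with the trimmed mean). CHAC1, which degrades glutathione, was the lowest of them in fold. It had 10.2 and 6.50 FPKM from 373 and 220 recovered reads, a fold of 0.639 (0.5385 to 0.757). Its locus is 41245160 to 41248710 of chromosome 15. Its plain ratio is past 1.5-fold, yet its difference of -0.57 is just inside the 1.5-fold limit of 0.58 on the log2(FPKM + 1) scale.

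DDIT4 (REDD1), an inhibitor of mTORC1, was higher in the A375-VR library, with 31.4 and 41.3 FPKM and a fold of 1.32 (1.22 to 1.42). NUPR1, a small stress-induced chromatin protein, was low in both, with 2.37 and 3.22 FPKM from 120 and 150 recovered reads, a fold of 1.35 (1.06 to 1.74). TRIB3, a pseudokinase that restrains ATF4 and AKT, had 48.4 and 51.5 FPKM, giving a ratio of 1.06 (1.01 to 1.12). PPP1R15A (GADD34), which brings the phosphatase to eIF2, had 36.1 and 37.5 FPKM, giving a ratio of 1.04 (0.977 to 1.11). STC2, a secreted glycoprotein, had 4.32 and 4.29 FPKM, and its ratio of 0.992, from 59 and 54 recovered reads, had an interval from 0.673 to 1.46. The recovered length of STC2 was 766 bases against 5062 in the reference, so its true reads may be more and this interval too wide. Both TRIB3 and PPP1R15A lay above 0 as deposited and with a common sum, but under 0 with the trimmed mean or centring. STC2 was below 0 except with a common sum.

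The amino acid enzymes were mostly lower in the A375-VR library. Of 10 genes 8 were kept, 7 of these were below 0 and CTH alone was above, with a median difference of -0.31. All 7 intervals of the lower genes lay below 1. Of all kept genes 39.7% were below 0, and 26.4% of those with recovered reads had an interval below 1. The summed FPKM of the 10 genes was 317 in A375 and 232 in A375-VR. PSAT1, the aminotransferase of serine synthesis, had the largest share of that sum in both. It had 175 FPKM in A375 and 111 in A375-VR, with a ratio of 0.633 (0.609 to 0.659). Its locus is 80912041 to 80945009 of chromosome 9.

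The other enzymes of the serine pathway differed less than PSAT1. PHGDH, which starts the pathway, had 34.6 and 29.0 FPKM, giving a ratio of 0.837 (0.8045 to 0.871). PSPH, which ends it, had 21.2 and 18.9 FPKM, giving a ratio of 0.890 (0.812 to 0.975). All 3 genes were lower, and the interval of PSAT1 did not overlap those of the other two. For proline synthesis, ALDH18A1 had 39.9 and 35.4 FPKM, giving a ratio of 0.887 (0.838 to 0.939), and PYCR1 had 16.8 and 12.7, a fold of 0.756 (0.6800 to 0.840). PYCR1 shares 408 exon bases with MYADML2 on the same strand, so its value is uncertain to that extent. GPT2, the mitochondrial alanine aminotransferase, had 14.1 and 9.85 FPKM, giving a ratio of 0.699 (0.646 to 0.757). PCK2, mitochondrial phosphoenolpyruvate carboxykinase, had 9.57 and 6.83 FPKM, giving a ratio of 0.713 (0.633 to 0.802).

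The transsulfuration genes went the other way. CTH, which releases cysteine from cystathionine, had 5.47 and 7.59 FPKM, giving a ratio of 1.39 (1.17 to 1.65). CBS, the step before it, did not pass the filter, with 0.256 and 0.448 FPKM from 31 and 50 reads and a fold of 1.75 (1.09 to 2.83).

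ASNS, asparagine synthetase and a textbook ATF4 target, was very low in both libraries. It had 0.315 FPKM in A375 and 0.164 in A375-VR, from 25 and 12 recovered reads over a recovered length of 4455 bases, and its fold of 0.520 (0.238 to 1.07) spanned 1. ASNS is on chromosome 7, minus strand, between 97480989 and 97501854 of GRCh37, and holds the response element core shown above. ASNS and CBS were the members under an FPKM of 1 in both libraries. GENCODE lists 5 pseudogenes named after ASNS, so its count is uncertain, and their part in the value was not tested.

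**Figure D3:**
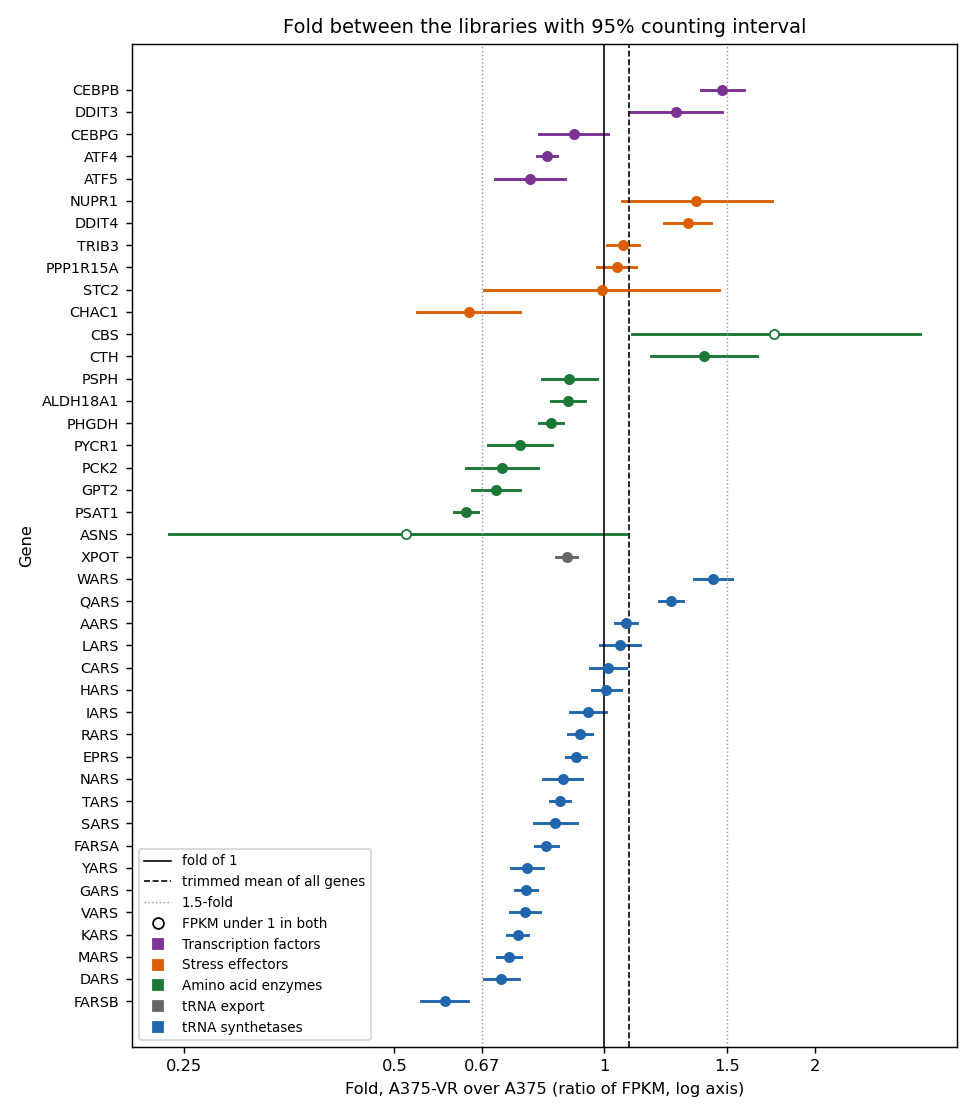
Fold of each gene between the libraries (x axis, ratio of FPKM, A375-VR over A375, log scale) with its 95% exact counting interval, grouped by role; open points are genes under an FPKM of 1 in both libraries, the dashed line is the trimmed mean over all genes and the dotted lines mark 1.5-fold. FARSB, at 0.591, and PSAT1, at 0.633, lie lowest among kept genes, and CEBPB and WARS lie highest.

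Most cytosolic synthetase genes were lower in the A375-VR library by a small amount. All 20 were kept; 14 were below 0 and 6 above (AARS, CARS, HARS and LARS among the 6 turn below 0 with the trimmed mean or centring), and the median difference was -0.20 (-0.32 with the trimmed mean, with 18 of 20 below 0). The interval of the fold lay below 1 for 13, above 1 for 3 and across 1 for 4. Of all kept genes 39.7% were below 0, or 50.4% with the trimmed mean. Among those with recovered reads, 26.4% had an interval below 1 and 43.6% one above. The summed FPKM of the 20 synthetase genes was 1223 in A375 and 1077 in A375-VR, a ratio of 0.881. XPOT, the exportin that carries mature tRNA out of the nucleus, had 55.3 and 48.8 FPKM, giving a ratio of 0.883 (0.853 to 0.914).

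FARSB had the lowest difference of the 40 kept members. It encodes the beta subunit of phenylalanyl-tRNA synthetase, an enzyme built from alpha and beta subunits. FARSB (chromosome 2 at 223431618 to 223520811) had 30.8 FPKM in A375 and 18.2 in A375-VR, with a ratio of 0.591 (0.547 to 0.638). FARSA, the alpha subunit, had the highest level of all synthetase genes in both libraries, with 153 and 126 FPKM and a fold of 0.826 (0.796 to 0.857). The intervals of the 2 subunits did not overlap, and the FPKM ratio of FARSA to FARSB was 4.98 in A375 and 6.96 in A375-VR.

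The next lowest folds were in synthetases for aspartate, methionine, lysine, valine, glycine and tyrosine. DARS had 42.5 and 30.2 FPKM, giving a ratio of 0.712 (0.672 to 0.753). MARS had 52.3 and 38.2, a fold of 0.7299 (0.702 to 0.758), and KARS had 109 and 82.0, a fold of 0.752 (0.726 to 0.778). Besides its overlap with DDIT3, MARS shares 519 exon bases with ARHGAP9 on the opposite strand. The folds of VARS, GARS and YARS lay between 0.769 and 0.775. SARS, TARS, NARS, EPRS and RARS followed with folds of 0.8502, 0.864, 0.871, 0.910 and 0.922, each with an interval below 1.

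WARS, the tryptophanyl-tRNA synthetase and also a gene induced by interferon, differed most upward of the synthetases. It had 30.6 FPKM in A375 and 43.8 in A375-VR, with a ratio of 1.43 (1.34 to 1.52). Its locus is 100800127 to 100843142 of chromosome 14. QARS, for glutamine, had 54.2 and 67.4 FPKM, giving a ratio of 1.24 (1.196 to 1.295). Both were above 0 with every scaling tried. AARS, for alanine, had 72.3 and 77.6 FPKM, giving a ratio of 1.07 (1.03 to 1.11), and turned to just below 0 with the trimmed mean and after centring. The intervals of IARS, CARS, HARS and LARS spanned 1, with folds from 0.946 to 1.05. HARS overlaps WDR55 on the opposite strand over 1090 exon bases and DND1 on the same strand over 176. WARS overlaps WDR25 on the opposite strand over 287. These overlaps add to the uncertainty of the values of HARS and WARS.

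The levels of the synthetase genes spanned 12.2-fold in the A375 library and 9.97-fold in the A375-VR library. FARSA came first and CARS last in both, with CARS at 12.5 and 12.7 FPKM. The order between them shifted: KARS went from rank 2 to 3, GARS from 3 to 7 and FARSB from 16 to 19, while WARS went from 17 to 11 and AARS from 8 to 5. FPKM is divided by gene length, so ranks and ratios between genes also depend on the lengths used in counting. The recovered length was 10037 bases for CARS and 2435 for FARSA. CARS ranked under WARS in the A375 library, with 2240 recovered reads there against 1734 for WARS. The recovered length of WARS was 3179 bases against 6356 in the reference. Its true reads may therefore be more, and which of CARS and WARS had more reads is uncertain.

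Splitting the synthetases in other ways gave medians below 0 in each group, from -0.10 to -0.32. Class I enzymes, with a Rossmann fold, had a median difference of -0.10 over 10 genes (-0.21 with the trimmed mean) and class II enzymes one of -0.25 over 10 (-0.37). The 8 synthetases that belong to the multisynthetase complex had a median of -0.12 (-0.24 with the trimmed mean) and the 12 outside it one of -0.22 (-0.33). The 12 usually listed as ATF4 targets had a median of -0.17 (-0.28 with the trimmed mean) with 8 below 0, and the other 8 one of -0.32 (-0.43) with 6 below 0. These splits overlap in membership and were not tested. The 9 kept genes with the response element core had a median of -0.20 (-0.31 with the trimmed mean) with 7 below 0, and the 23 kept genes with a promoter window and no match one of -0.13 (-0.25) with 14 below 0. Values in both groups overlapped, from -0.57 to 0.10 with the core and from -0.73 to 0.55 without it.

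The 17 mitochondrial synthetase genes listed, nuclear genes outside the members and not a classical ATF4 group, lay about where the cytosolic ones did. Of 17 genes 16 were kept, 12 were below 0, and the median was -0.23, where 39.7% of all kept genes were below 0. NARS2 had the lowest fold, 0.747, followed by VARS2 at 0.748. The scaffold genes of the multisynthetase complex were lower in 3 of 3, with EEF1E1 at 14.7 and 9.64 FPKM, giving a ratio of 0.656 (0.571 to 0.752), and AIMP1 and AIMP2 at folds of 0.785 and 0.799. The medians of the cytosolic and mitochondrial synthetases were thus -0.20 and -0.23, and their difference was not tested.

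Other genes that ATF4 is known to drive were split. Mitochondrial one-carbon enzymes, which use the serine made by PSAT1 and its partners, were below 0 in 4 of 4, with a median of -0.56. Of all kept genes 39.7% were below 0. MTHFD1L had 20.0 and 12.2 FPKM, MTHFD2 had 55.7 and 35.4, and SHMT2 had 80.5 and 57.7, while ALDH1L2 had a fold of 0.935. Of 8 amino acid transporters kept, 5 were below 0, to which SLC7A1 is added with the trimmed mean. SLC1A4, a carrier of neutral amino acids, had 3.92 and 10.05 FPKM, giving a ratio of 2.56, and SLC7A11, the cystine carrier, had 8.40 and 17.1, a fold of 2.03. SLC1A5, the glutamine carrier, had 104 and 62.9 FPKM, giving a ratio of 0.602. Both upward ratios exceed that of WARS, the highest synthetase.

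Upstream of ATF4, the 4 eIF2 kinases were all above 0, with a median of 0.22 that became 0.11 with the trimmed mean or centring. Of all 10761 kept genes 6493 were above 0 and 39.7% below, with a median of 0.10. EIF2AK2 and EIF2AK4 lay near the middle of all kept genes, at percentiles 43.1 and 53.5 of the difference. EIF2AK3 (PERK), the kinase of the endoplasmic reticulum, had 1.99 and 4.53 FPKM, giving a ratio of 2.27 (1.91 to 2.71). EIF2AK1 (HRI), the haem-regulated kinase, had 19.9 and 24.9 FPKM, giving a ratio of 1.26. EIF2AK4 (GCN2), which senses uncharged tRNA, had a fold of 1.10, and EIF2AK2 (PKR) one of 1.02, whose difference was below 0 with the trimmed mean. The eIF2 and eIF2B subunits and eIF2 phosphatase genes were below 0 in 9 of 12, with a median of -0.17 (-0.28 with the trimmed mean). EIF2S1, the subunit that the kinases phosphorylate, had 31.8 and 23.9 FPKM, giving a ratio of 0.753. Kinase activity and eIF2 phosphorylation were not measured.

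**Figure D4:**
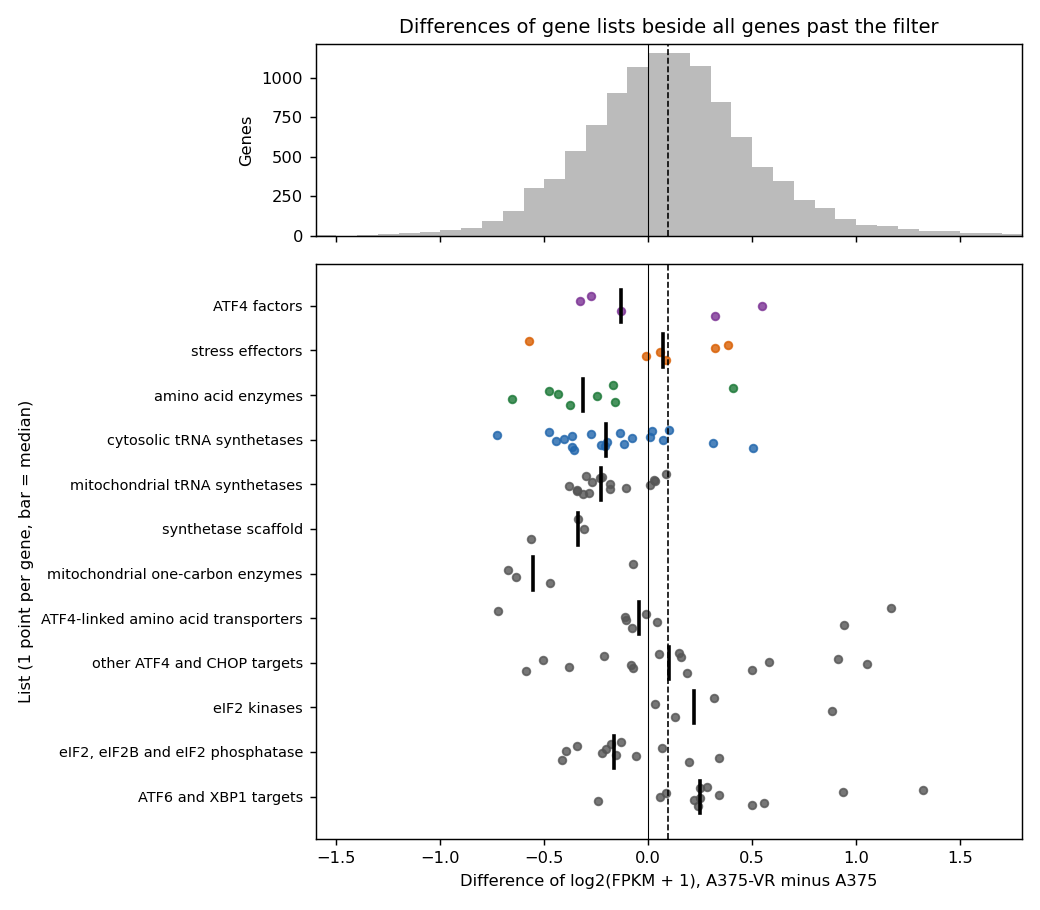
Differences of log2(FPKM + 1), A375-VR minus A375, for the genes of each list past the filter (lower panel, 1 point per gene, black bars are medians), under a histogram of all 10761 genes past the filter; the dashed line is the median of all genes, and the x axis is cut at both ends, so some genes of the histogram fall outside. Amino acid enzymes, both groups of synthetases and the one-carbon enzymes have medians below 0, and the eIF2 kinases one above it.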

How the data were processed

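The authors deposited 1 FPKM value per gene for each library. Per the series design text, the kit was a stranded TruSeq one, the sequencer a HiSeq 2000, and TopHat 1.3.3 placed the paired reads on GRCh37. Which counting tool, annotation and filters followed, and whether strand was used, is not given in the sources used here. FPKM is scaled to the whole library, so a few abundant genes can shift all others. Library totals and the smallest whole reads per gene were recovered from the deposited FPKM: the ratio of the totals was set where 274 genes had equal reads, and the common factor, of 12 tried, was the one at which most lengths of 3000 sampled genes equalled GENCODE 44 lengths (16.5%, next 11.3%). True reads may be multiples of those recovered, so intervals (95% exact Clopper-Pearson) can be too wide. NARS, for instance, has a recovered length of 1363 bases against 4089 in the reference. If both reads of a pair were counted apart, intervals would instead be too narrow. The counts of intervals on each side of 1 carry this uncertainty, which differs between genes. The pseudocount was 1 and the filter kept genes reaching an FPKM of 1 in either library. No count model was run. The differences, fold calls, intervals, trimmed mean and centring were tested on simulated data. The recovery of totals and reads and the motif search were not. Named genes were all members and up to 4 of each other list by size of difference. Members and lists were chosen with earlier results of these data known. Alternatives were a pseudocount of 0.1, no filter, a filter at 5, centring on the median ratio, a trimmed mean and a common sum. Promoter windows are RefSeq's, matched by Entrez number. Analyses used Python 3.11.15 with scipy 1.17.1. Coordinates on GRCh37 are GENCODE's.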

Additional observations from a re-analysis of the deposited data

How the results depend on the processing

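With a pseudocount of 0.1 all genes gave 689 at least 2-fold higher and 140 lower, and with a common sum 624 and 104. Lower genes were 101 at 2-fold and 760 at 1.5-fold, both after centring and with the trimmed mean, and the filter at FPKM 5 left 783 genes 1.5-fold higher, from fewer genes tested. Among the members the 1.5-fold lower count of 2 became 4 after centring and with the trimmed mean, adding CHAC1 and DARS, and 3 with a pseudocount of 0.1 or a common sum, adding CHAC1. The members' median of -0.17 became -0.284 after centring and -0.286 with the trimmed mean, and that of the cytosolic synthetases -0.315 and -0.317. Against the trimmed mean, a reading chosen after seeing the data, 6 member intervals lay above in place of 9 and, of the synthetases, 2 in place of 3. No member past the filter was 2-fold apart, or 1.5-fold higher, with any of these settings; CBS, which is not past it, had a difference of 0.205 that became 0.621 with a pseudocount of 0.1. TRIB3, STC2, PPP1R15A, AARS, CARS, HARS and LARS changed sign between scalings. No paired analysis was possible because each group has 1 library. Single libraries limit every value, and ASNS and CBS also rest on few reads. STC2 has few recovered reads, but its recovered length of 766 bases is under the 5062 of the reference, so its true reads may be more.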

Other observations

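Genes driven by ATF6 and XBP1, the other arms of the endoplasmic reticulum stress response, differed from the ATF4 set in direction. Of 13 genes 12 were above 0, with a median of 0.25 (0.15 with the trimmed mean). Of all 10761 kept genes 6493 were above 0, with a median of 0.10, so part of this direction is shared with all genes. With the trimmed mean 3 of the 13 were below 0, where 50.4% of all kept genes were. DNAJB9, a cochaperone of the reticulum, had 3.82 FPKM in A375 and 11.04 in A375-VR, with a ratio of 2.89 (2.45 to 3.43). EDEM1 and SEL1L, which act in the disposal of misfolded proteins, had folds of 2.00 and 1.55, and SYVN1, the ligase of that pathway, one of 1.46. SDF2L1 was below 0, at 23.4 and 19.7 FPKM, and HSPA5 and HERPUD1 joined it with the trimmed mean or centring. The difference between these genes and the ATF4 set was not tested.

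Further ATF4 and CHOP targets had a median of 0.10 over 14 of 17 genes, which became -0.078 with the filter at FPKM 5, where all genes had 0.052. KLHL24 had 0.714 and 2.56 FPKM from 55 and 182 recovered reads, a fold of 3.59 (2.64 to 4.94). Its recovered length was 4325 bases against 8650 in the reference, so its true reads may be more. GDF15, a secreted stress cytokine, had 19.8 and 38.1 FPKM, giving a ratio of 1.93 (1.76 to 2.11), and TXNIP, an inhibitor of thioredoxin, had 5.19 and 3.12. KDM7A, a histone demethylase, had a fold of 2.32 from levels near an FPKM of 1.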
